A study of Mus musculus with 81 samples.

Results

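The comparison set the 13 high-fat liver arrays with the highest score for Sqle against the 13 with the lowest, among 40 high-fat arrays of a series of 81 arrays. Sqle encodes squalene epoxidase, which adds the first oxygen on the way from squalene to sterols. Each array held liver RNA of 1 mouse strain, pooled evenly from about 5 male mice aged 29 weeks that had been fasted overnight. The strains were BXD lines, inbred from crosses between C57BL/6J and DBA/2J, together with both parents. All 26 arrays compared came from mice on the Harlan 06414 high-fat diet from week 8 of age. The same strains were also measured on Harlan 2018 chow, on arrays that did not enter the ranking. An array is 1 pool, so the spread between animals of a strain was not measured, and each strain appears once per diet. Because arrays were bulk liver RNA, fewer cells of a type and less RNA per cell cannot be told apart.

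The ranking used the Sqle values themselves, so everything on the high-fat arrays is given as a description, without a test. The deposited values are scores on a log-like scale of unstated base, on which the probe sets of every array had a mean of 8.0 and an SD of 2.0. Differences are therefore in score units and are not fold changes. Sqle, measured by 1 probe set, ran from 10.20 through a median of 10.73 to 11.47 on the high arrays and from 7.74 through 8.67 to 9.39 on the low ones. The group means were 10.69 ± 0.37 and 8.68 ± 0.42 (SD, n = 13 each). At the upper border BXD51 had 10.20 and BXD100, just outside, 10.16. At the lower border BXD69, just outside, had 9.40 and BXD44 9.39. The ranking therefore crossed a continuous range, with 14 arrays between the groups. The parents fell on opposite sides, DBA/2J at 10.73 in the high group and C57BL/6J at 9.31 in the low group.

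The sterol pathway turns acetyl-CoA into mevalonate, isoprenoid units, squalene and lanosterol, and then removes and shifts groups on the ring system to give cholesterol. In liver its enzymes are controlled together by the membrane-bound transcription factor SREBP2 (gene Srebf2), which SCAP carries to the Golgi for cleavage when sterols in the endoplasmic reticulum are low and which INSIG proteins hold back when sterols are high. Squalene epoxidase is regarded as a control point of the pathway, and genes of cholesterol uptake share the same control.

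**Figure D1:**
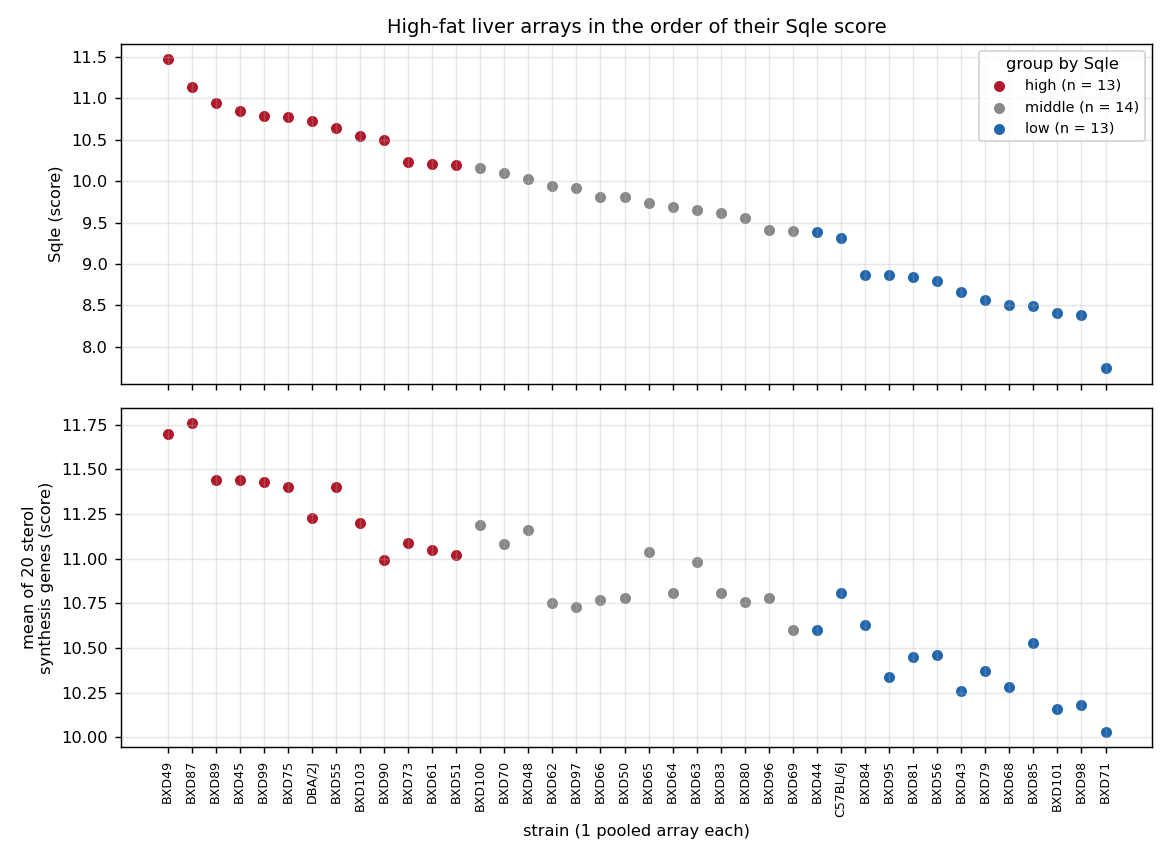
Score of Sqle (upper panel) and mean score of 20 other sterol synthesis genes (lower panel) for the 40 high-fat arrays in the order of Sqle, coloured by group. The sterol mean ran from 10.99 to 11.76 on high arrays and from 10.03 to 10.81 on low ones.

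The labelled tissue matched its markers on all 26 arrays. Albumin (Alb) lay between 15.30 and 15.57 and transthyretin (Ttr) between 14.99 and 15.20, against a median of 6.69 over the negative-control probe sets. Array medians overlapped between the groups, at 7.70 to 7.79 in the high and 7.68 to 7.78 in the low group, as did the medians of the negative controls, at 6.61 to 6.90 and 6.57 to 6.81. None of the 11 lists of cell type markers had a member that differed by 0.5 units or more. Their median differences ran from -0.09 for neutrophils to 0.08 for erythroid cells, with 0.06 for macrophages and -0.07 for adipocytes. BXD73 and BXD103, both in the high group, had more alike profiles than most strains (correlation of deviations 0.291, against a median of -0.03 over all pairs).

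Over all genes the groups differed little. The median absolute difference was 0.05 units and the 95th percentile 0.18, with a median signed difference of -0.01. Of 21764 genes other than Sqle, 57 were higher by 0.5 units or more on the high arrays (0.262%) and 49 were lower (0.225%). The ranges of the groups did not overlap for 9 genes that were higher (0.0414%) and 1 that was lower (0.00459%). These shares come from the same arrays that were ranked, so they describe the ranking and test nothing.

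Sterol synthesis genes made up the largest set among the higher genes in the 14 lists other than cell markers. Of 20 measured enzymes other than Sqle, 16 were higher by 0.5 units or more, all 20 were above 0, and 8 had ranges that did not overlap between groups. The list's median difference was 0.94 units, against -0.01 for all genes. On the 14 middle arrays the mean of each of the 20 genes lay between the means of the groups.

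The windows upstream of 5 of these genes are shown because the enzymes were higher together and because SREBP2 is known to act beside NF-Y, which binds the CCAAT box. They are the 250 bases before the annotated start, from RefSeq (GRCm38.p6), printed 5′ to 3′ on the gene's strand. Capitals mark CCAAT or its other strand ATTGG and the core of the sterol regulatory element TCACNCC or its other strand GGNGTGA. The windows are chr8:64733579-64733828 on the minus strand for Sc4mol (now Msmo1), chr13:8885356-8885605 on the plus strand for Idi1, chr5:4104698-4104947 on the minus strand for Cyp51, chrX:72918271-72918520 on the plus strand for Nsdhl and chr13:119690101-119690350 on the plus strand for Hmgcs1.
Sc4mol: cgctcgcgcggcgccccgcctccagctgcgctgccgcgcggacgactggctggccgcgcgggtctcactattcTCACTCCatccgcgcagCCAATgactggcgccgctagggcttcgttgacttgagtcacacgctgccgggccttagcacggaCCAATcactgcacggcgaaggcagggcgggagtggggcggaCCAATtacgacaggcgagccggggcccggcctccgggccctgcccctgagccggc
Idi1: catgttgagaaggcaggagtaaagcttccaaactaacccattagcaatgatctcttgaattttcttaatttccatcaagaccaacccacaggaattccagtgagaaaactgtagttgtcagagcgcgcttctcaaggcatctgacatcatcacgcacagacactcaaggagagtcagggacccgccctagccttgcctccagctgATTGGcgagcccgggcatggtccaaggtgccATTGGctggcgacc
Cyp51: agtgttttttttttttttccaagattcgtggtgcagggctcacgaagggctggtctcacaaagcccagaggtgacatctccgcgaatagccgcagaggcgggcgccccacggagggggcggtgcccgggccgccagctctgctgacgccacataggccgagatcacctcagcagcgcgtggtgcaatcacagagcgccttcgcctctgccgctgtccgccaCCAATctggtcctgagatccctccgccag
Nsdhl: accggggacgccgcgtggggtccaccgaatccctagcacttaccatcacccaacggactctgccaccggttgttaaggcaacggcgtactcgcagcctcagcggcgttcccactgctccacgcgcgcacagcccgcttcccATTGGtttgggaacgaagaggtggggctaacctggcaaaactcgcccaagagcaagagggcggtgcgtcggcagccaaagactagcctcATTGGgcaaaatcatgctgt
Hmgcs1: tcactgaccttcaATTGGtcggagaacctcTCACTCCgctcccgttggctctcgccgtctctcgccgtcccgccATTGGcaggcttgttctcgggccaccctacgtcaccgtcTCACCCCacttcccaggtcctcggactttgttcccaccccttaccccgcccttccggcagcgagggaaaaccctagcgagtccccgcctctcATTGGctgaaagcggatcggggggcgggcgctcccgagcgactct
Sc4mol and Hmgcs1 each held 3 CCAAT boxes, Idi1 and Nsdhl held 2 and Cyp51 held 1. A match is a description of the letters and not a measured binding site. Searched on both strands, CCAAT occurred in 15 of 19 windows of sterol synthesis genes (78.9%) and in 33.8% of all 32851 windows. The GC box GGGCGG (other strand CCGCCC) occurred in 16 of the 19 (84.2%), against 32.7% of all windows. High shares were not particular to these enzymes. CCAAT occurred in 64% of windows of sterol uptake and control genes, 52.2% of fatty acid and triglyceride synthesis and 33.3% of isoprenoid branch genes. For the GC box these shares were 68%, 43.5% and 41.7%. Windows of genes expressed in liver were not compared separately. TCACNCC was found in 3 of 19 windows (15.8%, against 13.4%) and the E-box CACGTG also in 3 (15.8%, against 6.02%). Only these exact letters, with any base at N, were searched, so forms of an element with other letters were not counted. The 19 windows belong to 16 of the 20 genes, some with more than 1 annotated start, and overlap between the motifs searched was not removed.

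At the entry to the pathway, cytosolic acetoacetyl-CoA thiolase (Acat2) was 0.41 ± 0.11 units higher (difference ± SE) and stayed within the limit. HMG-CoA synthase (Hmgcs1), which makes HMG-CoA, ran from 11.50 through 12.05 to 13.08 on high arrays and from 10.04 through 10.80 to 11.80 on low ones, a difference of 1.30 ± 0.21. The highest low arrays reached into the high range for Hmgcs1. The kinases and the decarboxylase of mevalonate differed less. Mevalonate kinase (Mvk) was higher by 0.54 ± 0.07, phosphomevalonate kinase (Pmvk) by 0.52 ± 0.12 and mevalonate diphosphate decarboxylase (Mvd) by 0.77 ± 0.10.

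In the isoprenoid stretch, isopentenyl diphosphate isomerase (Idi1) ran from 11.66 through 11.92 to 12.64 on high arrays and from 9.74 through 10.49 to 10.89 on low ones, 1.63 ± 0.13 units apart. A second probe set of Idi1 gave 1.60 ± 0.14. Farnesyl diphosphate synthase (Fdps) ran from 11.41 through 12.07 to 12.51 and from 10.04 through 10.64 to 11.37, a difference of 1.33 ± 0.15. Squalene synthase (Fdft1), the first enzyme committed to sterols, ran from 12.27 through 12.53 to 13.09 and from 11.32 through 11.50 to 12.04, a difference of 1.03 ± 0.09. For these 3 enzymes no low array reached the lowest high array. The branches that use the same isoprenoids for other products did not follow. None of the 11 measured genes of protein prenylation, dolichol and ubiquinone synthesis differed by 0.5 units, with a list median of 0.04. The geranylgeranyl transferase subunit Pggt1b, at 0.09 ± 0.06, had the largest absolute difference of the 11.

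After squalene, lanosterol synthase (Lss), which closes the rings, ran from 9.57 through 10.14 to 11.15 on high arrays and from 8.38 through 8.78 to 9.59 on low ones, a difference of 1.28 ± 0.16. Its ranges overlapped slightly, with 167 of 169 pairs of a high and a low array in the same order. Lanosterol demethylase (Cyp51) ran from 10.53 through 10.90 to 11.69 and from 8.62 through 9.37 to 10.004, a difference of 1.60 ± 0.15. Sc4mol, the sterol C4-methyl oxidase, ran from 11.997 through 12.48 to 12.87 and from 9.98 through 10.68 to 11.25. Its difference of 1.66 ± 0.13 was the largest of the 20 enzymes. Nsdhl, which decarboxylates the C4 position, ran from 11.22 through 11.96 to 12.44 and from 9.96 through 10.46 to 11.09, a difference of 1.40 ± 0.16. Cyp51, Sc4mol and Nsdhl separated all 13 high from all 13 low arrays.

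The last steps varied among themselves. The C14 reductase Tm7sf2 was higher by 0.63 ± 0.10. Its ranges narrowly missed each other, with the lowest high array at 11.49 and the highest low array at 11.47. Lbr, which can carry out the same reduction, was higher by 0.33 ± 0.07 with 151 of 169 pairs in order. The 3-ketosteroid reductase Hsd17b7 was higher by 0.84 ± 0.11, the C5 desaturase Sc5d by 0.52 ± 0.10 and 7-dehydrocholesterol reductase (Dhcr7) by 1.05 ± 0.14. The isomerase Ebp differed by 0.21 ± 0.07 and stayed within the limit, with 138 of 169 pairs in order.

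**Figure D2:**
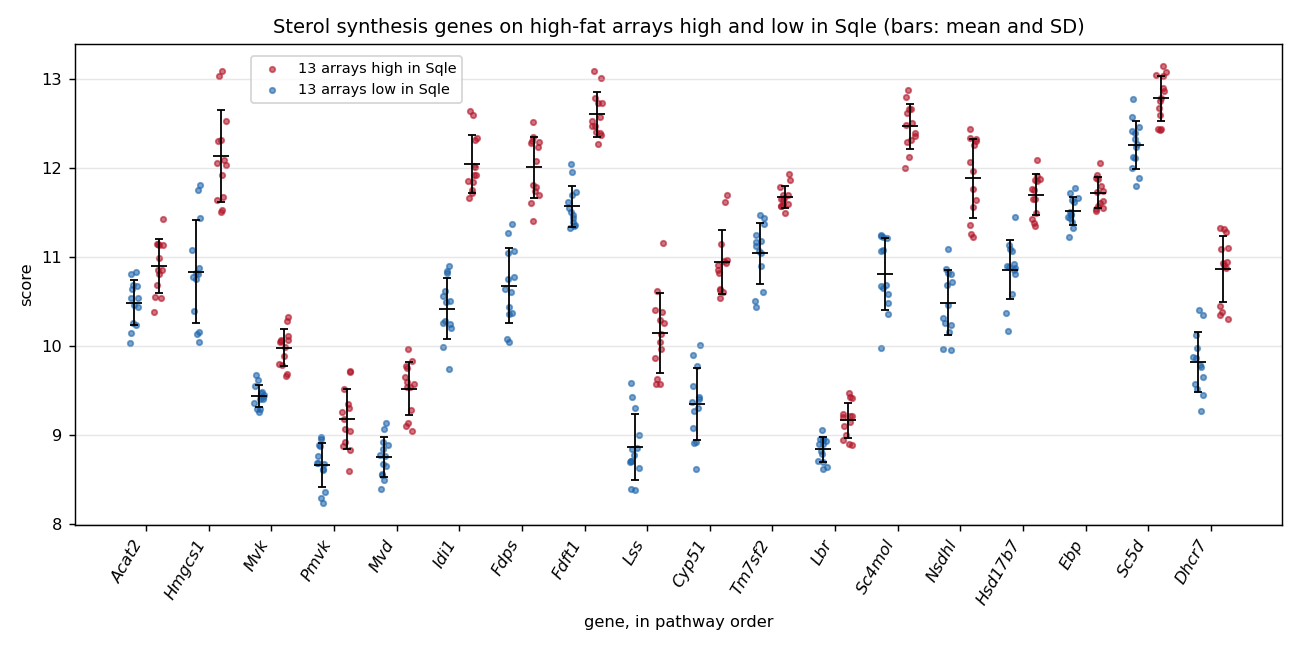
Scores of 18 sterol synthesis genes on the 13 high-fat arrays high in Sqle (red) and the 13 low in Sqle (blue), 1 point per array with group mean and SD in black. Idi1, Cyp51, Sc4mol and Nsdhl separated the groups, while Ebp overlapped with a difference of 0.21 units.

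The mean of the 20 genes ran from 10.99 through 11.40 to 11.76 on high arrays, from 10.60 through 10.79 to 11.19 on middle arrays and from 10.03 through 10.37 to 10.81 on low arrays. Of the 13 arrays high in Sqle, 10 were among the 13 with the highest sterol mean, and 12 of the 13 low arrays were among the 13 lowest. BXD90, at 10.99, was the lowest high array and C57BL/6J, at 10.81, the highest low array.

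Of 24 measured genes of sterol uptake and control, 5 were higher by 0.5 units or more, none was lower, and the list's median was 0.05. Insig1, which retains SCAP, ran from 12.33 through 13.07 to 13.64 on high arrays and from 10.95 through 11.58 to 12.86 on low ones, a difference of 1.15 ± 0.21. The sterol carrier Stard4 was higher by 0.73 ± 0.12. Srebf1, which encodes the fatty acid regulator SREBP1, was higher by 0.54 ± 0.22, with overlapping ranges of 10.47 to 11.71 and 9.58 to 11.73.

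Srebf2 itself differed by less than the limit but separated the groups. It ran from 10.09 through 10.24 to 10.45 on high arrays and from 9.50 through 9.90 to 10.08 on low ones, a difference of 0.39 ± 0.05. Insig2, the second INSIG gene, went the other way, with means of 12.73 ± 0.34 and 13.13 ± 0.26 and a difference of -0.40 ± 0.12. Mylip, a ubiquitin ligase known as an LXR target, was at -0.15 ± 0.05. The lysosomal sterol exporter Npc1 was at 0.00 ± 0.06, the HDL receptor Scarb1 at -0.09 ± 0.07 and the remnant receptor Lrp1 at 0.00 ± 0.05, close to 0 beside their errors. Scap differed by 0.13 ± 0.05 on the brighter of its probe sets and by -0.02 ± 0.06 on the other.

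Fatty acid synthesis, which SREBP1 controls in liver, was partly higher. Of 25 measured genes, 6 were higher by 0.5 units or more and 19 above 0, with a list median of 0.18. Fatty acid synthase (Fasn) ran from 11.33 through 12.36 to 13.10 on high arrays and from 10.40 through 11.04 to 12.86 on low ones, a difference of 0.99 ± 0.27. Its ranges overlapped widely. Relative to the median of 11.69 over all 40 high-fat arrays, 4 high arrays were below and 3 low arrays above. Acly, which supplies cytosolic acetyl-CoA from citrate, was higher by 0.67 ± 0.18, Acss2, which supplies it from acetate, by 0.59 ± 0.12, and Aacs, which activates acetoacetate, by 0.68 ± 0.19. Thrsp, a lipogenic regulator, was higher by 0.70 ± 0.28 and the acyl-CoA synthetase Acsl3 by 0.66 ± 0.14.

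Genes of fat storage and fat burning lay on the other side. Of 22 lipid droplet and uptake genes, 5 were lower by 0.5 units or more and 21 were below 0, with a median of -0.21. The droplet proteins Cidea and Cidec, which fuse lipid droplets, were at -1.22 ± 0.36 and -1.18 ± 0.28. Cidec ran from 7.83 through 8.38 to 9.83 on high arrays and from 8.18 through 9.82 to 10.88 on low ones. Mogat1, which makes diacylglycerol, was at -0.81 ± 0.21, the droplet coat Plin4 at -0.74 ± 0.18 and the fatty acid transporter Cd36 at -0.71 ± 0.22. All 5 overlapped between groups. Of 22 PPARA targets and fat oxidation genes, 4 were lower by the limit and 21 below 0, with a median of -0.16. The thioesterases Acot2 and Acot1 were at -0.60 ± 0.21 and -0.56 ± 0.26, the omega-hydroxylase Cyp4a14 at -0.55 ± 0.37 and the pantetheinase Vnn1 at -0.52 ± 0.14. For Cyp4a14 the high array of DBA/2J stood apart at 10.64. The other high arrays ran from 12.49 to 14.70 and the low ones from 12.26 to 14.88. The place of Cyp4a14 past the limit therefore leaned on the DBA/2J array.

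**Figure D3:**
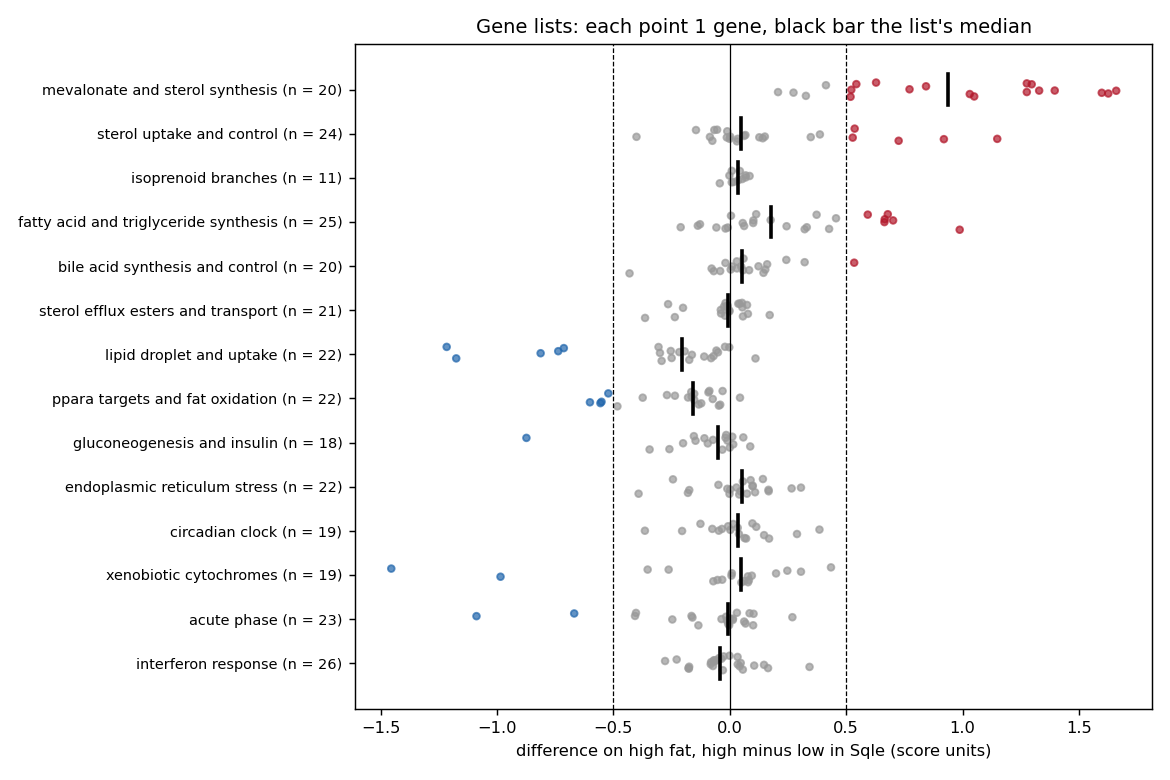
Difference on high fat (high minus low in Sqle, score units) of each gene of the 14 lists, with the list's median in black and the limit of 0.5 units dashed. Sterol synthesis genes had a median of 0.94 and lipid droplet genes one of -0.21.

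Other liver lists held few genes past the limit, or none. In bile acid synthesis, Cyp7a1, the rate-limiting enzyme, was higher by 0.53 ± 0.24, with 125 of 169 pairs in order, and the list's median was 0.05. In gluconeogenesis and insulin response, Igfbp1, a fasting-induced binding protein, was at -0.87 ± 0.31, whereas the gluconeogenic enzyme Pck1 was at -0.34 ± 0.09. Of the xenobiotic cytochromes, Cyp2b9 was at -1.45 ± 0.79 and Cyp2b13 at -0.98 ± 0.48. Cyp2b13 lay near background on many arrays, with medians of 6.28 on high and 6.99 on low arrays. The median of the negative controls was 6.69, and the highest low array reached 10.17 for Cyp2b13. Of the acute-phase genes, Orm3 was at -1.09 ± 0.31 and Lcn2 at -0.67 ± 0.43. Near-identical family members of Cyp2b and Orm can share probes, so single values are uncertain. Sterol efflux and ester genes, endoplasmic reticulum stress, the circadian clock and interferon response had no member past 0.5 units, with medians of -0.01, 0.05, 0.03 and -0.04.

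Outside the lists, 29 genes were higher and 35 lower by the limit. The steroid dehydrogenase Hsd3b5 had the largest difference, 1.91 ± 0.71, but ran from 6.96 to 12.84 on high arrays and from 6.10 to 12.07 on low ones, so that both groups covered nearly the same range. The retinol dehydrogenase Rdh11 ran from 9.58 through 10.37 to 10.83 and from 8.90 through 9.18 to 9.98, a difference of 0.94 ± 0.14. Trefoil factor Tff3 was higher by 1.15 ± 0.39 and the organic anion transporter Slco1a1 by 0.97 ± 0.43. Among lower genes, the cell cycle inhibitor Cdkn1a had a median of 8.77 on high and 9.73 on low arrays, whose lowest value was 9.02. Its difference was -1.03 ± 0.23, and its ranges overlapped, with the high array above the low one in 17 of 169 pairs. The surface antigen Ly6d was at -1.22 ± 0.30 and the peptidase Mme at -1.21 ± 0.47. Sulf2, a sulfatase that trims heparan sulfate, was the 1 gene lower without overlap, and was singled out after its values were seen. It ran from 9.01 through 9.39 to 9.64 on high arrays and from 9.72 through 9.97 to 10.50 on low ones, a difference of -0.69 ± 0.09.

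The chow arrays of the same 26 strains had no part in the ranking and could be tested. Compared by limma between the strains high and the strains low in Sqle on high fat, 0 of 21765 genes passed an adjusted p of 0.05 (0%), and 1709 had an unadjusted p below it. On chow, Sqle averaged 9.87 ± 0.47 in the strains high on high fat and 9.47 ± 0.88 in those low. The difference was 0.40 ± 0.25 (limma, unadjusted p = 0.130, adjusted p = 0.683). The DBA/2J chow array carried pancreatic acinar transcripts; without it there were also 0 calls, and the Sqle difference was 0.34. Of the 20 sterol synthesis genes, 17 were above 0 on chow, beside 53.7% of all genes. Their median was 0.11 against 0.01 for all genes, and 0 of the 20 had an unadjusted limma p below 0.05. Sc4mol had a difference of 0.42 ± 0.23 and Idi1 one of 0.27 ± 0.22, against 1.66 and 1.63 on high fat. Sulf2 was at -0.33 ± 0.12 on chow (limma, unadjusted p = 0.0132, adjusted p = 0.605).

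Over the 39 strains with both diets, Sqle on high fat and on chow had a Pearson r of 0.30 (permutation p = 0.0628) and a Spearman rho of 0.318 (permutation p = 0.0486), each with an adjusted p of 0.0628 over the pair of tests. Without BXD49 and BXD71, the strains farthest from the high-fat median, r was 0.251 (permutation p = 0.136). The relation did not pass the threshold. The SD of Sqle over arrays was 0.891 on high fat (n = 40) and 0.646 on chow (n = 41), and the difference in spread was not tested. All 13 strains of the high group had more Sqle on high fat than on chow, by 0.83 units on average, against 3 of the 13 strains of the low group, whose mean difference was -0.79. Since strains were chosen on the high-fat value, these diet differences are partly set by the choice. C57BL/6J had 10.94 on chow and 9.31 on high fat, and DBA/2J had 10.49 and 10.73.

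**Figure D4:**
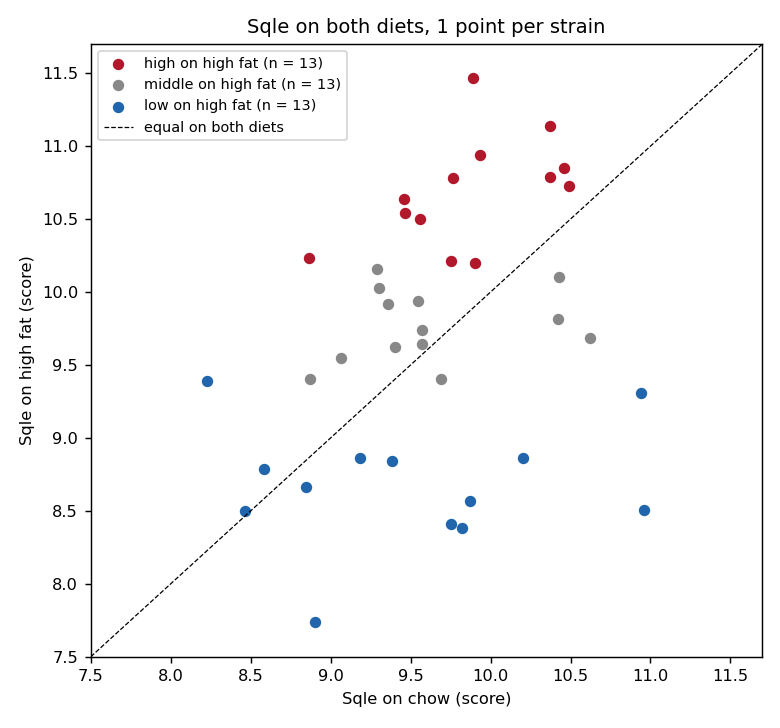
Sqle score on high fat against chow for 39 strains, coloured by their group on high fat, with the line of equal values dashed. High strains lie above the line in 13 of 13 cases, and the chow values of the groups overlap.

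After the comparison of strain groups on chow had made 0 calls, a second fit, chosen after seeing that result, asked which genes followed Sqle within the chow arrays. In this limma fit on all 41 chow arrays, with the Sqle score of the same array as covariate, 47 of 21764 genes passed with a slope above 0 (0.216%) and 22 with one below 0 (0.101%). Of the 20 sterol synthesis genes, 15 passed with a slope above 0 and none with one below. Without the DBA/2J array, 44 and 20 genes passed, and again 15 of the sterol synthesis genes. Their median slope over all 20 was 0.42 units per unit of Sqle, against -0.01 for all genes. Idi1 had a slope of 0.81 ± 0.05 (limma, adjusted p = 8.63e-17), Cyp51 one of 0.72 ± 0.06 (limma, adjusted p = 3.54e-12) and Sc4mol one of 0.83 ± 0.07 (limma, adjusted p = 6.1e-12). Acat2, Tm7sf2, Lbr and Ebp were among those that did not pass, at slopes of 0.19, 0.15, 0.09 and 0.12. Tm7sf2 had separated the groups on high fat by a narrow gap.

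The slopes on high fat, which have no test, were close in size for several enzymes. They were 0.79 for Idi1, 0.79 for Cyp51 and 0.81 for Sc4mol, and the list's median was 0.47. For Tm7sf2 it was 0.30 on high fat against 0.15 on chow, and for Hsd17b7 0.44 against 0.25. The difference between diets was not tested.

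Of the control genes, Insig1 passed on chow with a slope of 0.58 ± 0.08 (limma, adjusted p = 2.7e-05), as did Stard4 with 0.32 ± 0.06 (limma, adjusted p = 0.00537) and Srebf2 with 0.14 ± 0.03 (limma, adjusted p = 0.0156). The Srebf2 call was lost among BXD strains alone (adjusted p = 0.106). Of the fatty acid synthesis list, Acsl3 passed at 0.34 ± 0.05 (limma, adjusted p = 6.59e-06) and Acly at 0.40 ± 0.10 (limma, adjusted p = 0.0462). The Acly call was lost without the 2 arrays farthest from the median of Sqle, among BXD strains alone and with 1 strain kept of each related set. Fasn did not pass, at 0.53 ± 0.15 (limma, adjusted p = 0.0962).

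Of the 57 genes higher on high fat, 26 passed on chow with a slope above 0 (45.6% of the 57 and 55.3% of the 47), and 15 of these 26 were sterol synthesis enzymes. Of the 49 lower genes 0 passed, beside 0.101% of all genes with a slope below 0. The lipid droplet list had a median slope of -0.19 and the PPARA and fat oxidation list one of -0.17, against -0.01 for all genes, with 1 and 0 of their 22 members each past the test below 0. Cidea and Cidec had slopes of -0.39 ± 0.26 and -0.47 ± 0.24, and Cdkn1a one of -0.12 ± 0.18. The phospholipid exporter Abcb4, at -0.23 ± 0.05 (limma, adjusted p = 0.0156), and the lipoprotein receptor Vldlr, at -0.33 ± 0.07 (limma, adjusted p = 0.0213), passed below 0. The Abcb4 call was lost among BXD strains alone and without the 2 farthest arrays, and the Vldlr call among BXD strains alone (adjusted p = 0.142) and with 1 strain kept of each related set (adjusted p = 0.0629). On high fat Abcb4 had been at -0.24 ± 0.05 and Vldlr at -0.25 ± 0.19, both within the limit.

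Rdh11, outside the sterol lists, had a slope of 0.54 ± 0.07 on chow (limma, adjusted p = 5.95e-06) beside its difference of 0.94 on high fat. Mmab, a cobalamin adenosyltransferase, passed at 0.30 ± 0.05 (limma, adjusted p = 0.000315) and Aldoc, a fructose-bisphosphate aldolase, at 0.29 ± 0.06 (limma, adjusted p = 0.0116). The succinate receptor Sucnr1 passed at 0.46 ± 0.09 (limma, adjusted p = 0.00792). Without the 2 farthest arrays the calls of Aldoc (adjusted p = 0.164) and Sucnr1 (adjusted p = 0.092) were lost, and that of Aldoc also among BXD strains alone (adjusted p = 0.0512). Hsd3b5 had the steepest slope of the named genes, 1.33 ± 0.40, and did not pass (limma, adjusted p = 0.15).

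**Figure D5:**
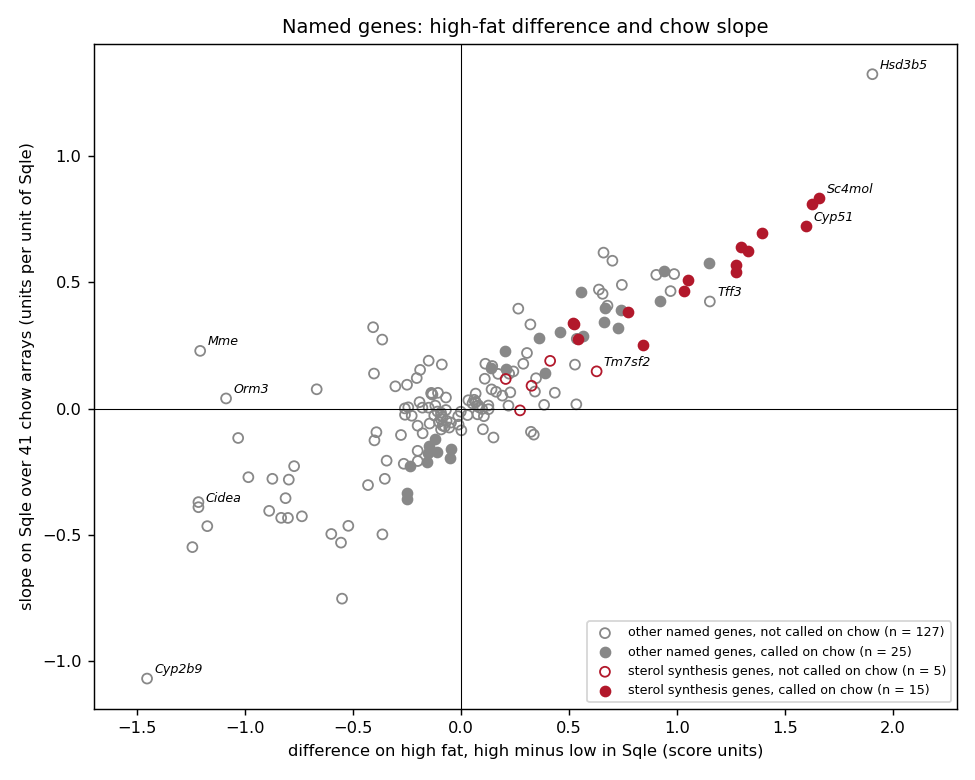
Difference on high fat (high minus low in Sqle, score units) against slope on Sqle over 41 chow arrays (units per unit of Sqle) for the named genes, with filled points for genes past an adjusted p of 0.05 on chow. Of 20 sterol synthesis genes, 15 are filled, and Hsd3b5, Mme and Orm3 lie apart without passing.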

How the data were processed

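Liver RNA pools were hybridised to Affymetrix arrays. Affymetrix Expression Console is listed, with no version or role, in the submitters' processing notes. How probes were summarised and in which batches arrays were run is not given in the sources used here. As deposited by the authors, values are scores: every array had a mean of 8.0 and an SD of 2.0 over 35556 probe sets, so arrays had been standardised before deposit. The 2 deposited tables differed in 0 cells. Per gene symbol the probe set with the highest mean was kept, leaving 21765 genes, of which 1747 had several. The number of arrays limits the precision.

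The 40 high-fat arrays were ranked by Sqle, and the 13 highest and 13 lowest were described by means, SDs, ranges and differences. The 26 chow arrays of those strains were compared with limma 3.58.1 in R 4.3.3 (lmFit, eBayes), two-sided, with Benjamini-Hochberg adjustment over all genes and a threshold of 0.05. Sqle on both diets was correlated over 39 strains (scipy 1.17.1, permutation tests, 100000 resamples, two-sided). The limma slope on chow Sqle was added after the group comparison had made 0 calls. It leaves out Sqle itself. Both limma fits were tested on simulated data.

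Named were the sterol synthesis and uptake or control genes, some of which are counted in the lists but not reported here by name, the 15 largest high-fat differences each way outside the sterol lists among genes above the negative controls, 4 members per other list, and for the slope the 10 smallest p each way outside the sterol lists. Sulf2, Acss2 and Cd36 were named after their values were seen. The members and the 25 gene lists (444 entries, 433 matched) were chosen with earlier results of these data known. Motifs were searched in RefSeq windows of 250 bases. The alternatives were the choice of probe set, centring, quantile normalization, a filter on dim genes, arrays with pancreatic acinar transcripts, related strains, parents, group size, array weights and single arrays.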

Additional observations from a re-analysis of the deposited data

How the results depend on the processing

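On high fat the counts of 57 higher and 49 lower genes came to 24 and 18 with the 20 highest against the 20 lowest arrays, where less extreme arrays enter by construction. Leaving out 1 array at a time, added after seeing the data, gave 49 to 62 higher and 44 to 60 lower genes, and 14 to 16 sterol synthesis genes past the limit. Of 1242 alternative values for 156 named genes, 1233 moved by less than 1 SD and 9 by more. Many of these values could hardly move. The filter on dim genes left every kept value unchanged, and the choice of probe set cannot move a gene with 1 probe set. Of the related strains dropped, only BXD103 was in a group. The SD was that between arrays of a group, which is larger than the SE of a difference. The 1233 is therefore a weak measure of stability. The sign turned in 15 of the values, for 9 genes whose difference was at most 0.14 units, and for 0 genes past the limit of 0.5 units. The 9 values that moved by more than 1 SD were Scap with its other probe set and 8 sterol synthesis enzymes. The 8 enzymes moved with 20 against 20 arrays, such as Sc4mol at 1.20 and Idi1 at 1.12, and kept their sign. The chow comparison of strain groups made 0 calls under every alternative run and without each array in turn, while 1246 to 2270 genes had an unadjusted p below 0.05; the chow Sqle difference ran from 0.29 to 0.52 without single arrays. The correlation of Sqle between diets kept adjusted p between 0.0541 and 0.136.

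The chow slope, with its alternatives, was chosen after seeing the data. Its 47 higher genes became 81 with centred arrays, 29 in BXD strains alone, 108 with array weights and 26 without the 2 arrays farthest from the median of Sqle. Its 22 lower genes became 13 with 1 strain kept of each related set, 5 in BXD strains alone, 69 with array weights and 3 without the 2 farthest arrays. The cause was not tested. Sterol synthesis genes called were 15 in each setting except 14 without the 2 farthest arrays, where Pmvk was lost (limma, adjusted p = 0.092). Of 40 named genes called, 24 were called in every setting. The BXD63 high-fat array, which carries pancreatic acinar transcripts, was in neither group, and Sqle has 1 probe set, so leaving that array out of the high-fat groups, or taking another Sqle probe set, gave no separate value. High and low arrays could not be paired, because the groups are different strains and their replicate numbers are only names. The diets of a strain can be paired, but no test of paired diet differences between the groups was run. Scores carry no counting depth, and standardised arrays do not show a shift of all genes together.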

Other observations

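Some genes, picked after their values were seen, had differences of like size between the strain groups on both diets, without passing the test on chow. Tff3 was at 1.15 on high fat and at 1.11 ± 0.24 between the same strains on chow (limma, unadjusted p = 8.32e-05, adjusted p = 0.536). Orm3 was at -1.09 and -1.11 ± 0.29 (limma, adjusted p = 0.536) and Mme at -1.21 and -1.15 ± 0.39 (limma, adjusted p = 0.587). Their slopes on chow Sqle were 0.42 ± 0.19, 0.04 ± 0.25 and 0.23 ± 0.26, none of which passed (limma, adjusted p = 0.384, 0.973 and 0.796). Acly and Fasn were at 0.67 and 0.99 on high fat and at -0.07 ± 0.17 and 0.09 ± 0.24 between the same strains on chow.

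Of the genes with the smallest p in the chow slope, Stt3a, an oligosaccharyltransferase subunit, passed at 0.16 ± 0.03 (limma, adjusted p = 0.000633), the signal peptidase subunit Spcs2 at 0.23 ± 0.04 (limma, adjusted p = 0.00179) and Erp44 at 0.16 ± 0.03 (limma, adjusted p = 0.00231). Without the 2 arrays farthest from the median of Sqle the calls of Spcs2 (adjusted p = 0.131) and Erp44 (adjusted p = 0.087) were lost. On high fat the 3 genes were higher by 0.21, 0.20 and 0.14 units, within the limit of 0.5. Of the 22 genes of the endoplasmic reticulum stress list 0 passed the chow slope, with a median slope of 0.13.

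The chow difference between strain groups was above 0 for 47 of the 57 genes higher on high fat and below 0 for 45 of the 49 lower ones, with 53.7% of all genes above 0. These genes were chosen for differing between the same strains on high fat, so the counts are a description without a test. Strain differences tied to Sqle and those unrelated to it cannot be told apart by these counts.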
